A study of Homo sapiens with 2 samples.

Results

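Interferon response genes were examined for RNA recovered with YTHDF3, a cytoplasmic reader of N6-methyladenosine (m6A), a methyl mark on messenger RNA. The group holds 46 genes of the type I interferon response, chosen by name, and a gene counted as a member with a peak when a row of the authors' peak list carried its symbol. A peak here is a genomic region with more signal in the YTHDF3 immunoprecipitate than in the input. Of the 46 genes, 26 had at least 1 peak (56.5%), with 47 peaks of the 18466 in the list. Over all 19974 protein-coding genes of chromosomes 1 to 22 and of X, the share was 40.0%.

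KYSE30 is an established human cell line from a squamous carcinoma of the esophagus, and the cells were grown in medium with 10% fetal bovine serum and antibiotics. They received no treatment, so no interferon was added. RNA immunoprecipitation (RIP) with an anti-YTHDF3 antibody gave 1 library, and total RNA of the same line gave 1 input library. The study asked which messenger RNAs YTHDF3 binds at its natural level. With 1 library of each kind no replicate error exists and no test across samples was possible. No library of a control antibody or of YTHDF3-deficient cells was analysed here, so recovery by YTHDF3 and nonspecific recovery cannot be told apart.

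Type I interferons bind a receptor on the cell surface, whose kinases JAK1 and TYK2 then activate transcription factors of the STAT family. These join IRF9 and switch on many antiviral genes through a short DNA element in their promoters, the interferon-stimulated response element. The products sense viral RNA, degrade it, block its translation, hold back virus particles or raise antigen presentation. YTHDF proteins bind m6A in the messenger RNA and affect its translation and decay, and interferon-induced messenger RNAs can carry m6A. Receptor subunits and kinases are in the group as parts of the pathway, and they are made without interferon.

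Fold enrichment is the ratio of RIP over input for a peak as the authors' caller scaled it, and its p and adjusted p are the authors' own too. They compare reads of these 2 libraries. The depth under the peaks is unknown, because read totals were not used here. Squamous markers were on the list with 3 peaks for TP63, 2 for KRT14 and 1 for KRT5, and none for KRT6A. Of the immune cell markers, PTPRC, CD3E and CD79A had no peak and CD14 had 1 with an adjusted p of 0.254. The list does not say how much of each RNA the cells make, so where a peak is absent, little RNA and little enrichment cannot be told apart.

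Shown first are members with a match to the response element before an annotated start. A peak of the gene also covered that start or began within 100 bases after it. The peak held the match in PARP9 and, in OAS3, the match nearer the start. In the other members shown, every match lay upstream of the peak. Whether a match responds to interferon was not tested. The motif searched was GAAANNGAAA, which reads TTTCNNTTTC on the other strand, in the 250 bases before each annotated start, and overlapping matches were counted. Sequences are from RefSeq on GRCh38.p14, written 5′ to 3′ on the strand of the gene up to the base before the start, with each match in capitals. Where matches overlap, as upstream in IFIH1, the capitals run together.
IFIT1, chr10:89392493-89392622, plus strand: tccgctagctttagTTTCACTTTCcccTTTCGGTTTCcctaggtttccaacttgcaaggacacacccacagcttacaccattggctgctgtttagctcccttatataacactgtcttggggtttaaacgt
IFIT3, chr10:89327827-89327996, plus strand: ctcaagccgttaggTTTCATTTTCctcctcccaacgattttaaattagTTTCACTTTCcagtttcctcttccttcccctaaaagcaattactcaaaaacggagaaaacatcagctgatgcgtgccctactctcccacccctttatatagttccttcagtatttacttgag
IFIT5, chr10:89414508-89414567, plus strand: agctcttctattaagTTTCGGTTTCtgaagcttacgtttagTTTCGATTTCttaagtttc
OAS3, chr12:112938314-112938473, plus strand: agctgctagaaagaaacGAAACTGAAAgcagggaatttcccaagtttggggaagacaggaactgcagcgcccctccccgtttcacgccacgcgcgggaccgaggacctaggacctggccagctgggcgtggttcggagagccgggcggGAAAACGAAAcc
IFIH1, chr2:162318685-162318854, minus strand: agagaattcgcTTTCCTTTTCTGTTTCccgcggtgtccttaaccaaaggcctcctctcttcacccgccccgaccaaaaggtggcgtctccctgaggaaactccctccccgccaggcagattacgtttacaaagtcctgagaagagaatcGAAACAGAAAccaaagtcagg
RSAD2, chr2:6877617-6877776, plus strand: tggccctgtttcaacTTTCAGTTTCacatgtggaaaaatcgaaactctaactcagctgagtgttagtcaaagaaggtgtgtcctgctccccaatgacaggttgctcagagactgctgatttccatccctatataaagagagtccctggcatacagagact
TAP2, chr6:32838740-32838809, minus strand: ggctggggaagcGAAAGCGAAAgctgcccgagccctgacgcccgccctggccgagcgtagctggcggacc
PARP9, chr3:122564301-122564360, minus strand: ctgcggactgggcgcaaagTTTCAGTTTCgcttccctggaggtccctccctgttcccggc

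A promoter window was at hand for 38 of the 46 members, and 23 of these held the motif (60.5%), against 3.60% of the 15812 protein-coding genes with a window. The motif is what such genes are known for, so this share describes the group and not the RNA. Among members with a peak 13 of 23 held it (56.5%), and among members without a peak 10 of 15 (66.7%). Over all protein-coding genes the shares were 3.41% with a peak and 3.74% without. A match of these letters is a description, not a site shown to be used.

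Of the receptor subunits and kinases, all 4 genes had a peak, against 40.0% of all protein-coding genes. Each is longer than 10000 bases, and of all protein-coding genes of at least that length 45.8% had a peak. IFNAR1, a subunit of the receptor, had the second largest fold enrichment of the group, 17.6, over chromosome 21 from 33355431 to 33358994 with an adjusted p of 8.51e-10. This region and a further peak with a fold enrichment of 4.18 (adjusted p 0.0417), which ended 2 bases before the end of the gene, lay wholly in the last part of a gene of 35470 bases. IFNAR2, the partner subunit, also carried its 2 peaks at the 3′ end, with midpoints at 93.1% and 96.9% of the gene. Their fold enrichments were 4.18 (adjusted p 7.94e-11) and 5.02 (adjusted p 0.000355), and the second region overlapped a peak of IL10RB-DT on the opposite strand. Both receptor genes thus had no peak in the part nearer the 5′ end.

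The kinase genes differed from the receptor genes in the place of their peaks. JAK1 had 1 peak of 131105 bases that covered 55.9% of the gene, with a fold enrichment of 3.45 at an adjusted p of 7.94e-22. TYK2 had a peak at its 5′ end with a fold enrichment of 2.51 (adjusted p 0.129) and another inside the gene with 2.73 (adjusted p 0.00132). The pair 2.51 and p of 0.0479 was also listed for the only peak of SAMHD1 and for 56 peaks in all.

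None of the 5 transcription factor genes had a peak, against 40.0% of all protein-coding genes and 25.5% of those under 10000 bases. They are STAT2 and IRF9, which are parts of the factor that binds the response element, IRF3 and IRF7, which start interferon production, and IRF1. IRF1, IRF3, IRF7 and IRF9 are short genes of 3396 to 9165 bases. For the 5 genes no fold enrichment exists in the list, which gives no bound on their recovery.

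The 8 genes grouped under RNA sensing and degradation, which include SAMHD1, had a peak in 5 cases, against 40.0% of all protein-coding genes. Their best fold enrichments lay between 1.29 and 5.02. IFIH1, the sensor of long double-stranded RNA also called MDA5, had 3 peaks that together covered 68.9% of the gene. The one at the 5′ end, on chromosome 2 from 162310557 to 162318673, led with a fold enrichment of 4.89 at an adjusted p of 1e-11. It began 11 bases after the start whose promoter is printed above. The middle and 3′ regions stood at 1.57 (adjusted p 0.00204) and 2.0 (adjusted p 0.024).

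Oligoadenylate synthetases sense double-stranded RNA and make the signal that switches on RNase L. OAS3, the largest of them, had a peak over its start with a fold enrichment of 5.02 (adjusted p 0.000955), which began 122 bases before the annotated start. Its other 3 peaks were narrow, 211 to 331 bases long, and lay between 92.2% and 97.3% of the gene. Of these 3, the fold enrichment was 3.55 with an adjusted p of 0.0145, and 1.33 and 1.85 with adjusted p of 0.0759 and 0.0575. OAS1 had 1 peak of 210 bases with a fold enrichment of 1.29 (adjusted p 0.0158), the lowest best value of the group. OAS2, which lies on the other side of OAS3, had none.

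OASL, a relative without the synthetase activity, had 2 peaks inside the gene at 3.76 (adjusted p 9.77e-06) and 2.01 (adjusted p 2.88e-05). SAMHD1, which breaks down the building blocks of DNA, had 1 peak of 569 bases near its 3′ end at 2.51 (adjusted p 0.129). EIF2AK2, the kinase PKR that halts translation, and the exonuclease gene ISG20 had none.

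All 4 IFIT genes had a peak, against 40.0% of all protein-coding genes. IFIT proteins bind foreign RNA and block its translation: IFIT1 recognises caps that lack a host methyl group, IFIT2 and IFIT3 form complexes with it, and IFIT5 binds RNA with a triphosphate end. The genes stand in a row on chromosome 10 with IFIT1B between IFIT3 and IFIT1, and IFIT1B had no peak. Each of the 4 had a peak over most of the gene: 82.3% of IFIT1, 93.4% of IFIT2, 97.4% of IFIT5 and 100% of IFIT3. Over all 26 members with a peak, the median share of the gene under its peaks was 37.4%, and over all protein-coding genes with a peak 66.7%.

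These peaks had the smallest p of the group. For IFIT1 the region from 89392546 to 89404030 had a fold enrichment of 5.61 and a p listed as 0, which it shares with 146 other peaks. IFIT5 followed with a fold enrichment of 7.82 at an adjusted p of 1e-253, and only 204 of the 18466 peaks had a smaller p. IFIT3 stood at 11.9 with an adjusted p of 1e-165, in a region from 89327984 to 89340971, with 353 peaks smaller. IFIT2 had the lowest fold enrichment of the 4, 4.18, with an adjusted p of 3.98e-90 and 755 peaks smaller.

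The fold enrichments of these 4 main peaks, 4.18 to 11.9, lie on both sides of 7.53, the median best value of all protein-coding genes with a peak. IFIT1 had a second peak of 1289 bases at its 3′ end with a fold enrichment of 11.3, larger than that of its main peak, but an adjusted p of only 0.0115. Which IFIT1 value is used moves its rank in the group, since the larger fold belongs to the peak with the larger p. IFITM1, IFITM2 and IFITM3, which keep viruses from fusing with the cell membrane, had no peak. They are short genes of 1185 to 1580 bases with similar sequences, and how reads that fit several genes were assigned is not given in the sources used here.

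**Figure D1:**
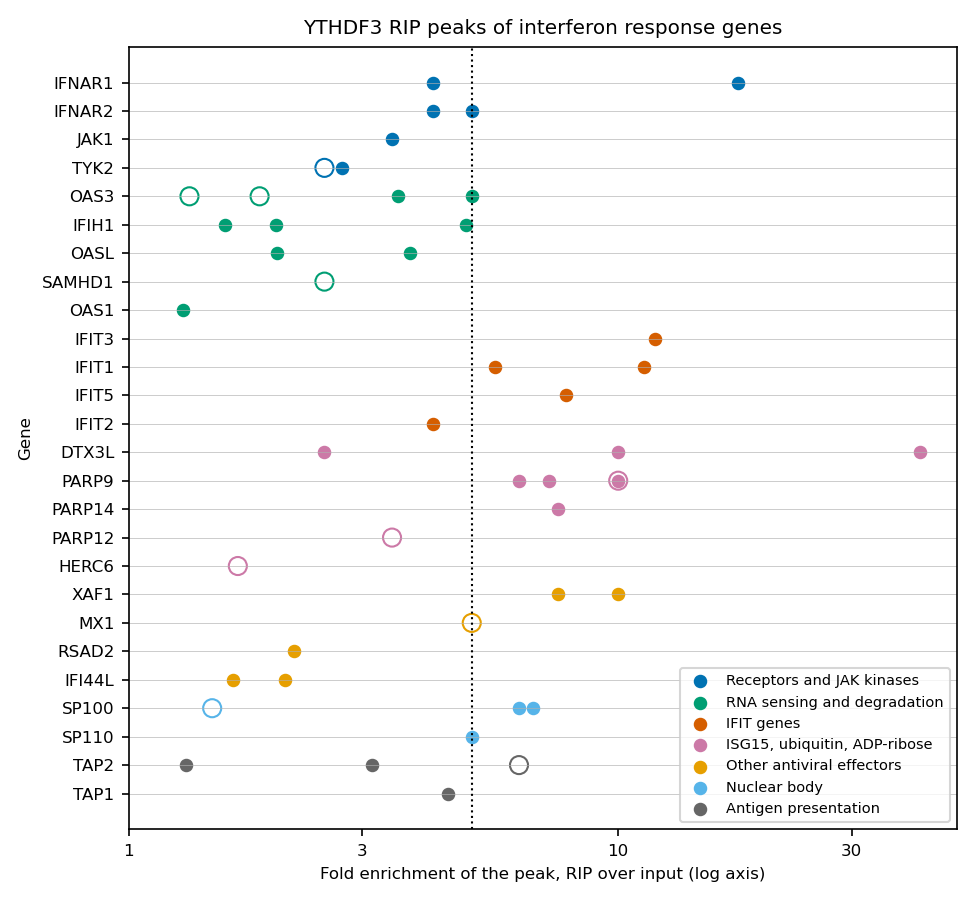
Fold enrichment of each of the 47 peaks (horizontal log axis, RIP over input) for the 26 interferon response genes with a peak, coloured by role. Filled points have an adjusted p under 0.05 and open points do not, and the dotted line is the median of all 18466 peaks, 5.02. DTX3L at 41.4 and IFNAR1 at 17.6 stand farthest to the right.

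Genes of ISG15 and of ubiquitin or ADP-ribose transfer had a peak in 5 of 7 cases, against 40.0% of all protein-coding genes. They held 10 peaks. DTX3L, a ubiquitin ligase that works bound to PARP9, had the largest fold enrichment of the group, 41.4 with an adjusted p of 5.01e-67. The region ran on chromosome 3 from 122564238 to 122573676 and covered 85.9% of the gene. Toward the 3′ end the fold enrichments were 10.0 (adjusted p 0.0038) over 510 bases and 2.51 (adjusted p 7.76e-09) over the last 809 bases. The 3 peaks together covered 98.1% of the gene.

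PARP9, the partner of DTX3L in DNA repair and antiviral signalling, lies next to it and is read in the opposite direction. Its main peak covered 76.0% of the gene with a fold enrichment of 7.21 at an adjusted p of 2e-69. At the 3′ end a peak of 4226 bases stood at 6.27 (adjusted p 7.94e-05), and an inner one of 539 bases at 10.0 (adjusted p 0.0776). That pair of 10.0 and a p of 0.00813 is listed for 364 peaks in all. The last of its peaks, of 333 bases from 122564245 to 122564577, had a fold enrichment of 10.0 at an adjusted p of 2e-30.

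This narrow PARP9 peak lay wholly inside the leading DTX3L peak on the opposite strand, and it covers the sequence printed above for PARP9. A start of PARP9, at 122564300, and that of DTX3L, at 122564338, are 38 bases apart and face away from each other. The match to the response element occupies 122564332 to 122564341, across the annotated start of DTX3L, so it counts for the PARP9 window and not for the DTX3L window. The other annotated start of PARP9, at 122564784 and inside DTX3L, had no match. Without peaks that share at least 1 base with a peak of another gene, the best fold enrichment of DTX3L is 10.0. The leading DTX3L peak shares only 333 of its 9439 bases with the narrow PARP9 peak.

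PARP14, an ADP-ribosyltransferase beyond PARP15 in the same row, had 1 peak over 96.6% of its 50002 bases with a fold enrichment of 7.53 at an adjusted p of 1e-35. PARP15 between them had no peak. PARP12, a related enzyme on chromosome 7, had 1 peak at 3.45 with an adjusted p of 0.0631. HERC6, of the family whose member HERC5 attaches ISG15 in human cells, had 1 peak of 270 bases at 1.67 with an adjusted p of 0.0501. HERC5 itself and ISG15, the ubiquitin-like protein, had none.

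**Figure D2:**
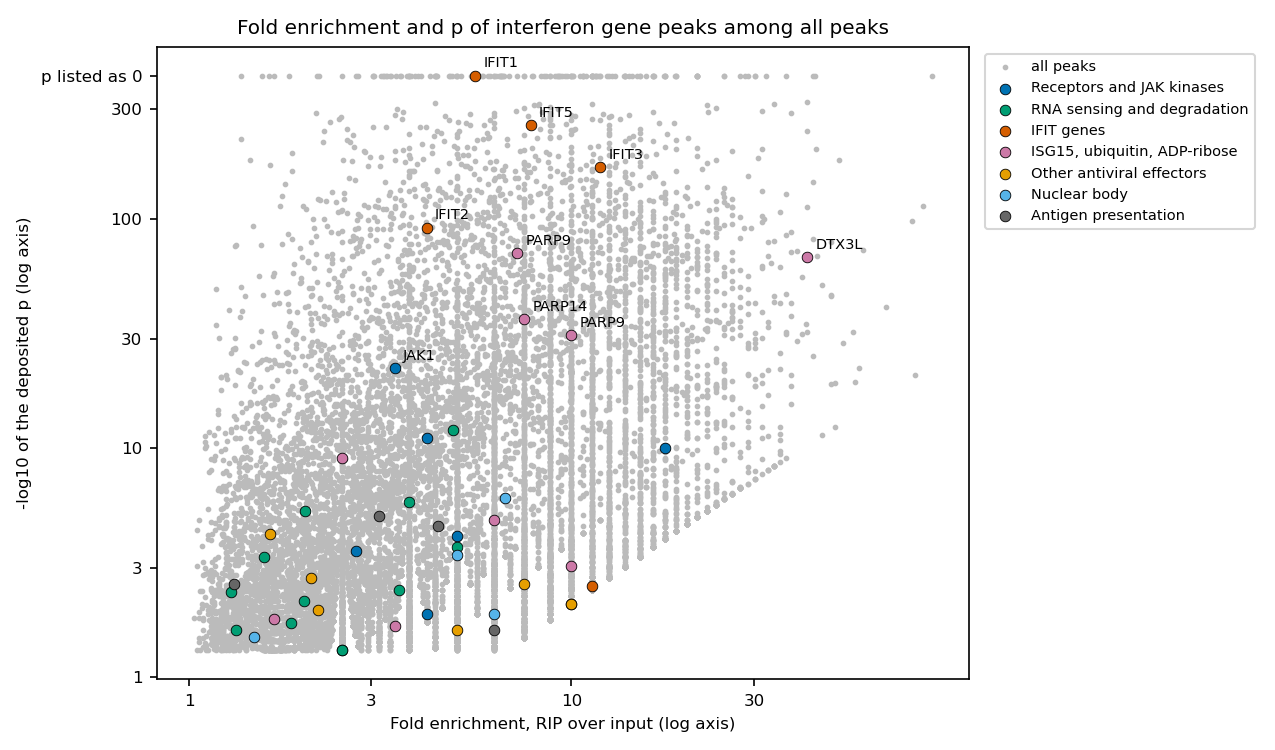
Fold enrichment (horizontal log axis) against the minus log10 of the deposited p (vertical log axis) for all 18466 peaks in grey and the 47 interferon gene peaks in colour, with p listed as 0 drawn on the top line. The main peaks of the 4 IFIT genes lie near the top at fold enrichments of 4.18 to 11.9, the second IFIT1 peak lies low at 11.3, and DTX3L lies at the right at 41.4.

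Other antiviral effectors had a peak in 4 of 10 cases, the same share as the 40.0% of all protein-coding genes. XAF1, a binder of the cell death inhibitor XIAP, had a peak near its start at 7.53 (adjusted p 0.011) and one over its end at 10.0 (adjusted p 0.0417). The pair of 10.0 and a p of 0.00813 is the one of the inner PARP9 peak, where the listed adjusted p is 0.0776, so the same p stands on either side of 0.05 once adjusted by the authors. The second XAF1 region shared its lower boundary with a peak of equal fold enrichment on the opposite strand, listed for the clone-named locus RP11-609D21.3. MX1, a GTPase that traps viral nucleocapsids, had 1 peak over the last part of the gene at 5.02 with an adjusted p of 0.202.

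RSAD2, also called viperin, had 1 peak at 2.17 (adjusted p 0.0355) that began 1 base before the inner start whose promoter is printed above. IFI44L had peaks of 1.63 (adjusted p 0.000316) and 2.08 (adjusted p 0.00776) inside the gene, and its neighbour IFI44 had none. MX2, the tetherin gene BST2, IFI6, IFI27 and IFI35 had none. The effectors with a peak therefore ranged from a best fold enrichment of 2.08 in IFI44L to 10.0 in XAF1.

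Both nuclear body genes, SP100 and SP110, had peaks, against 40.0% of all protein-coding genes and 45.8% of those of at least 10000 bases. SP100, a core protein of the PML nuclear bodies, had 3 adjoining peaks toward the 3′ end. The middle one, of 691 bases, led with a fold enrichment of 6.69 (adjusted p 6.03e-06), and those before and after it stood at 1.48 (adjusted p 0.0912) and 6.27 (adjusted p 0.0417). SP110 had 1 peak over 72.7% of the gene at 5.02 (adjusted p 0.00174), in a region that also holds a peak of the clone-named locus AC009950.1 on the same strand.

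In antigen presentation, TAP1 and TAP2 code for the transporter that carries peptides to the class I molecules. TAP1 had 1 peak over its 3′ end at 4.48 (adjusted p 0.000141), inside a PSMB9 peak of 10121 bases on the opposite strand with a fold enrichment of 5.02 (adjusted p 0.0562). TAP2 had its peak with the smallest p at the 5′ end, at 3.14 (adjusted p 5.13e-05), and others at 1.31 (adjusted p 0.011) and 6.27 (adjusted p 0.202). The first and the second of these overlapped peaks of 3.14 and 1.34 under the clone name XXbac-BPG246D15.9 on the same strand. B2M, the light chain of the class I molecules, had none.

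**Figure D3:**
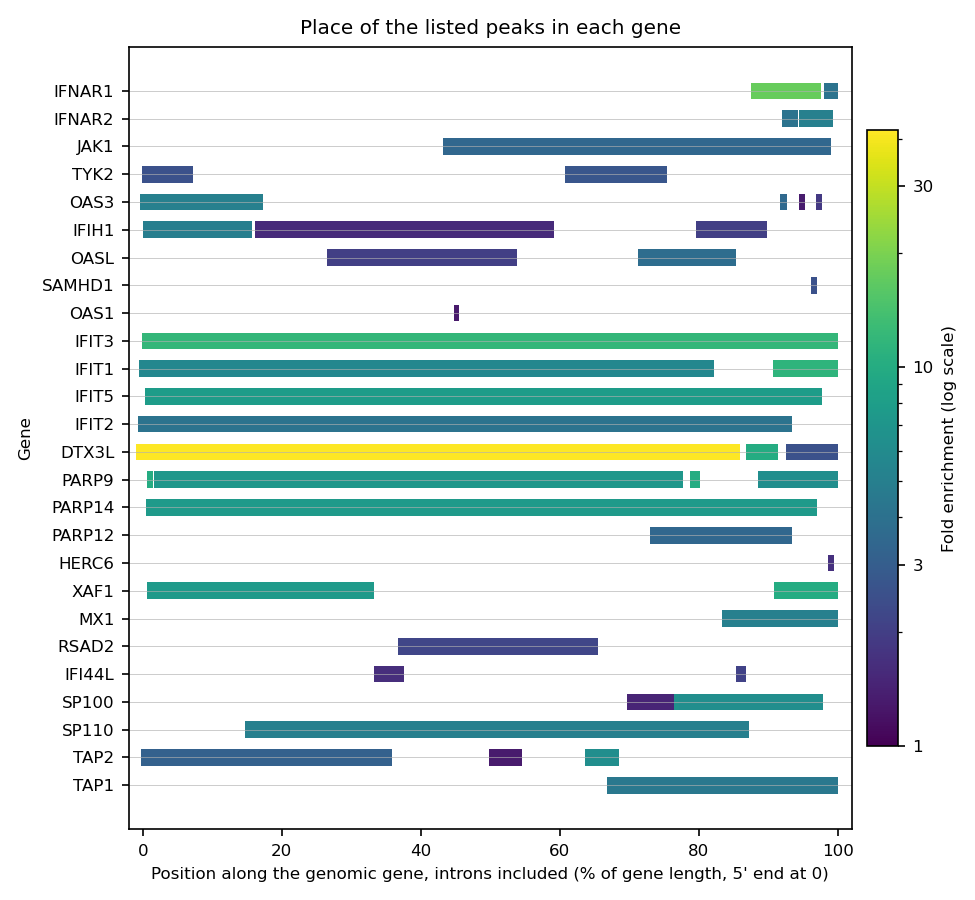
Place of the 47 peaks along each of the 26 genes as a percent of the genomic gene length with introns, 5′ end at 0, with colour for fold enrichment on a log scale. Peaks span nearly the whole of IFIT2, IFIT3, IFIT5 and PARP14, and those of IFNAR1 and IFNAR2 lie at the 3′ end. The narrowest peaks are drawn at a minimum width so that they can be seen.

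Along the genes, short peaks could be placed best, taken as those of up to 1000 bases in a gene of over 10000 bases. Of 16 such peaks in the members, 8 had their midpoint in the 10% of the gene nearest the 3′ end, against 61.8% of all short peaks. With a span of up to 2000 bases the count was 11 of 20, against 59.7%, and with an adjusted p under 0.05 it was 4 of 10, against 61.5%. In the 10% nearest the 5′ end lay 1 of the 16, that of PARP9 (6.25%), against 11.3% of all. Of the 47 peaks of any length, 8 had a boundary within 100 bases of the 5′ end of the gene (17.0%), and 17.3% of all peaks did. At the 3′ end the count was also 8 (17.0%), and 14.4% of all peaks had such a boundary. Of the 47 regions, 8 overlapped a peak of another gene (17.0%), against 18.1% of all peaks. By at least 50% of the region the count was 7 (14.9%), against 11.1%, and on the opposite strand 5 (10.6%), against 14.2%. These shares describe the peaks and were not tested.

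The best fold enrichment of the 26 members with a peak had a median of 5.02, with quartiles of 3.45 and 7.75. Over all protein-coding genes with a peak it was 7.53, with quartiles of 4.39 and 11.3. At least that median was reached by 8 members, which are DTX3L, IFNAR1, IFIT3, IFIT1, PARP9, XAF1, IFIT5 and PARP14. The best value is the largest over a gene's peaks. Members with a peak had a median of 1.5 peaks, and all protein-coding genes with a peak had 2. Over single peaks the median fold enrichment was 4.18 in the members, against 5.02 in the whole list. Many peaks carry the same values: 25 of the 47 had a fold enrichment that at least 100 peaks of the list share, as had 10486 of the 18466 peaks. A fold enrichment of 5.02 alone was listed for 951 peaks, among them those of SP110, OAS3, IFNAR2 and MX1. The value 7.53, also the median over all protein-coding genes, was listed for 1500 peaks, among them that of PARP14.

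The share of members with a peak depended on the choice of peaks. With an adjusted p under 0.05 it was 22 of 46 (47.8%), against 34.0% of all protein-coding genes, and HERC6, MX1, PARP12 and SAMHD1 dropped out. Among the 10% of peaks with the smallest p, 6 members had one (13.0%), against 7.99% of all. These were the 4 IFIT genes, DTX3L and PARP9. With only peaks at or above the median fold enrichment of the list, 14 members had a peak (30.4%), against 28.7%. Without regions shared with another gene, 24 members had one (52.2%), against 35.3%.

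Gene length went along with having a peak. The 26 members with a peak had a median genomic length of 33566.5 bases and the 20 without had 7151 bases. Over all protein-coding genes the medians were 34314 bases with a peak and 18161 bases without. Of the 31 members of at least 10000 bases 23 had a peak (74.2%), against 45.8% of all protein-coding genes of that length. Of the 15 shorter members 3 had one, which were IFIT2, IFIT5 and TAP1, against 25.5% of all. How far length accounts for the share of members with a peak was not tested.

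**Figure D4:**
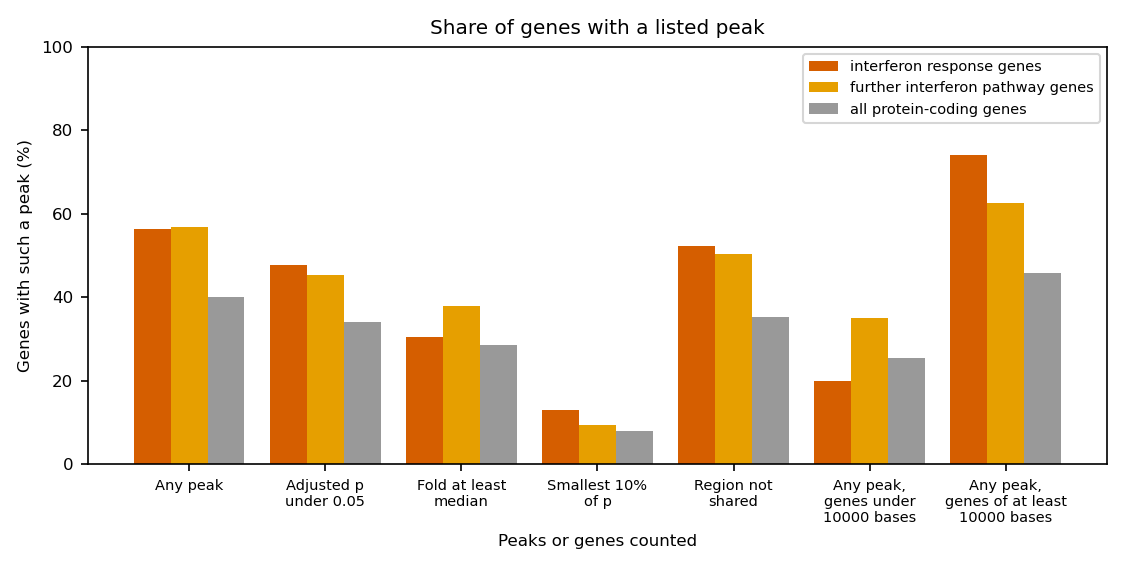
Share of genes with a listed peak (vertical axis, percent from 0) under each choice of peaks or genes, for the 46 interferon response genes, 95 further interferon pathway genes and 19974 protein-coding genes. The interferon response genes stand at 56.5% against 40.0% for any peak and at 30.4% against 28.7% for peaks at or above the median fold enrichment of the list.

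A further list of 95 interferon pathway genes was drawn from general knowledge, with earlier results of these data known. It had a peak in 54 cases (56.8%), against 40.0% of all protein-coding genes. For genes of at least 10000 bases the share was 62.7%, against 45.8%, and for shorter genes 35.0%, against 25.5%. The median best fold enrichment of the further list was 7.0, against 7.53 over all protein-coding genes with a peak. TICAM1, the adaptor of the receptor TLR3, led with 31.4 (adjusted p 7.94e-19), and TLR3 itself, which senses double-stranded RNA in endosomes, reached 16.3 (adjusted p 2.51e-05). CIITA and NLRC5, which switch on class II and class I antigen presentation genes, had 25.1 (adjusted p 5.01e-33) and 22.6 (adjusted p 2.75e-05). The CIITA region overlapped a peak of another gene. NLRC5 stood above TAP1 at 4.48 and TAP2 at 6.27 (adjusted p 0.202) in best fold enrichment. This value is the largest of 6 peaks in NLRC5, of 1 in TAP1 and of 3 in TAP2.

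Among the ubiquitin ligases of the further list, TRIM56 had 15.1 with an adjusted p of 2.51e-94 and TRIM34, in a region shared with another gene, 15.1 with 1e-26. RNF213, a giant ligase, had 12 peaks with a best fold enrichment of 15.1 (adjusted p 0.00195). TRIM21, the cytosolic antibody receptor, had 12.5 (adjusted p 1.26e-49). SOCS3, an inhibitor of JAK kinases, had 14.7 (adjusted p 3.98e-33) and the signalling adaptor TRAF3 13.8 (adjusted p 0.00389). Of the nucleic acid sensing genes listed under older names, RIGI had 7.53 (adjusted p 0.254), CGAS 3.76 (adjusted p 0.0417) and STING1 5.02 (adjusted p 0.0513). These 3 were chosen after their values were seen.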

How the data were processed

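One YTHDF3 RIP library and one input library of untreated KYSE30 cells were told apart by title. Random hexamers primed fragmented RNA, adapters carried molecular identifiers, and paired reads of 150 bases were taken, per the labels' protocols. The deposited file is a list of peaks with a p-value, a fold enrichment (the RIP to input ratio) and an adjusted p-value, all made by the authors, per the file headers. Coordinates are on hg38, the build in the submitters' processing notes. The aligner, caller, thresholds and strand setting were not named in these sources. Every listed p was at most 0.049 and adjusted p reached 0.335.

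Starts were taken as counted from 0, since 786 lay 1 below their gene's start in RefSeq (GRCh38.p14) and 68 equalled it, and are printed counted from 1. Against this, the deposited length is end minus start plus 1 in all 18466 peaks, so deposited lengths are 1 base longer than those printed, and printed starts could be 1 too high. Peak names were matched to RefSeq by symbol (16536 peaks), older symbol (762) or, for spreadsheet dates, place (23), within 100000 bases on the same chromosome. Members were matched by exact name. Overlap means at least 1 shared base on either strand. The steps ran in Python 3.11.15 with pandas 2.3.3 and were tested on simulated data. Every member with a peak is named, and of the further list the 10 genes with the largest fold enrichment; a further gene of that rule is not reported here. Members and lists were chosen with earlier results of these data known. The planned search of peaks for an m6A motif was not run, since peak sequences were not used here.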

Additional observations from a re-analysis of the deposited data

How the results depend on the processing

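The count of 26 interferon response genes with a peak was 22 with an adjusted p under 0.05 and 24 without peaks shared with another gene. It was 26 with older symbols or with any peak on the gene's own strand. It was 14 with peaks at or above the median fold enrichment of the list and 6 with the 10% of peaks with the smallest p, since fewer peaks were counted. The further 95 genes gave 54, and between 36 and 51 under their alternatives, of which matching current symbols only (51) was chosen after seeing the data. The median best fold enrichment of 5.02 was 4.33 over the median of each gene's peaks, 4.69 in the peak with the smallest p, 4.96 without shared peaks and 5.02 with an adjusted p under 0.05. In the peak with the smallest p, 6 of 26 genes had another value: 5.61 in IFIT1, 1.63 in IFI44L, 7.21 in PARP9, 7.53 in XAF1, 3.14 in TAP2 and 4.18 in IFNAR2. Short peaks nearest the 3′ end numbered 8, and 11 with a span of up to 2000 bases, and 4 with an adjusted p under 0.05, where fewer peaks were counted. Of 8 peaks that overlapped a peak of another gene, 5 did so on the opposite strand and 7 by at least 50% of their length. No paired analysis was possible because each kind of library was sequenced from 1 sample. Depth is unknown, and with 1 library of each kind the fold enrichments have no replicate error.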

Other observations

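Of the 20 members without a peak, 19 also had no peak of any other name over their locus, on either strand. These 20 genes had a median length of 7151 bases. The same count was not made over all protein-coding genes without a peak, so it is not a trait shown to be particular to the members. The exception among the members was IFITM3, which lies wholly inside a region of 6992 bases on chromosome 11, from 318640 to 325631. That region was listed on the opposite strand for the clone-named locus RP11-326C3.11 with a fold enrichment of 7.53 at an adjusted p of 0.106. In MX1, which has a peak of its own, a region of 4653 bases from 41441056 to 41445708 was listed on the opposite strand for the clone-named locus AP001610.5 with a fold enrichment of 6.27 at an adjusted p of 0.119. The strand setting of the authors' counting is not given in the sources used here, so reads of a gene and of a locus on the other strand may not be separated.

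In the row of receptor genes on chromosome 21, IFNAR2, IL10RB and IFNAR1 had peaks and IFNGR2, a subunit of the interferon gamma receptor, had none. IL10RB, which is shared by the receptors of interleukin 10 and of interferon lambda, had 3 peaks with a best fold enrichment of 7.53 at an adjusted p of 0.254. No IL10RB peak had an adjusted p under 0.05, and the smallest was 0.0661. IFNLR1, the other interferon lambda receptor subunit, had 3 peaks on chromosome 1 with a best fold enrichment of 10.0 at an adjusted p of 0.000132. These genes were chosen after their values were seen.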
